A study of Mus musculus with 6 samples.

Results

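Adhesion G protein-coupled receptors are cell-surface receptors that join a long extracellular region, built of adhesion domains, to the membrane-spanning part shared by all G protein-coupled receptors. Many cut themselves within a conserved extracellular domain, and the stretch freed at the new end can act as a tethered agonist when the extracellular part is pulled by a ligand on a neighbouring cell or in the matrix. The family is known for roles in myelination, brain blood vessels, immune cells and epithelia.

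The family was read from the deposited gene table as the 27 rows, of 25683 genes, whose symbol is Adgr followed by a subfamily letter and a number. Of these, 12 had at least 10 exon reads in at least 3 of the 6 libraries and are called expressed here, and 15 did not. Celsr1, Celsr2 and Celsr3, receptors of the same class, carry other symbols and are not counted among the 27.

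RNA was sequenced in 6 libraries, of which 3 are knock-out for Nt5e (KO; libraries 1, 2 and 3) and 3 are wild-type (WT; libraries 4, 5 and 6). All were labelled as a primary line of mouse aortic vascular smooth muscle cells and were held for 48 h at 0.5% serum after growth at 10% serum. Nt5e encodes CD73, the ectoenzyme that makes adenosine from AMP. The labels do not say how the gene was disrupted, nor whether each library had its own animal or culture. The p-values therefore reflect the spread among these libraries alone, which may be technical. Depth was 19919095 to 23669252 exon reads per library, and the 27 genes took 8947, 12479 and 11479 of them in KO libraries 1, 2 and 3 and 10439, 11260 and 10381 in WT libraries 4, 5 and 6.

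Some facts of the whole series touch every result. Nt5e itself had 22, 1 and 2 exon reads in KO libraries 1, 2 and 3 and 615, 688 and 486 in WT libraries 4, 5 and 6. KO libraries 2 and 3 were nearly identical, as were WT libraries 4 and 6, with a biological coefficient of variation of 3.66% and 3.49% within these pairs. KO library 1 differed from the other 5 libraries by 45.3% to 49.8%. Of the smooth muscle markers, Des had 4 and 2 reads over KO and WT libraries and Myocd had 5 and 2. Acta2 averaged 381 ± 267 CPM in KO and 74.1 ± 24.9 CPM in WT, but KO library 1, at 73.8 CPM, lay within the WT range. It did not pass (log2 fold change 2.36; edgeR adjusted p = 0.0633), though it passed as a rise without KO library 1 (2.85, edgeR adjusted p = 0.000115). Myh11, too low for the test with all libraries, had 5, 54 and 67 reads in KO libraries 1, 2 and 3. The WT libraries 4, 5 and 6 had 3, 3 and 1. Smtn averaged 98.2 CPM in KO and 67.3 CPM in WT. Tagln, at 21.4 ± 3.91 CPM in KO, did not pass (log2 fold change 0.33, edgeR adjusted p = 0.202). It passed as a rise without KO library 1 (0.47, edgeR adjusted p = 0.0104). Cnn1 fell, with 0.369 ± 0.206 CPM in KO and 2.07 ± 0.995 CPM in WT (-2.45, edgeR adjusted p = 0.0246). Markers of mesothelium, the epithelial lining of body cavities, summed to 69.7 to 195 CPM in KO libraries and to 3000 to 3140 CPM in WT libraries, and all 7 tested of the 8 listed were called lower in KO. In such bulk samples, fewer cells of a type and less RNA per cell cannot be told apart.

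KO libraries held far less RNA of 5 adhesion receptors than WT libraries and more of 3 others. Adgrf5, Adgrf4, Adgrd1, Adgrb2 and Adgrg2 were lower, each by at least 4-fold, and Adgre5, Adgrg6 and Adgrl1 were higher (edgeR's quasi-likelihood test on exon reads; Benjamini-Hochberg adjustment, p under 0.05). The other 4 expressed members, Adgra2, Adgra3, Adgrl2 and Adgrg1, did not pass. Over all 12660 tested genes, 13.7% were called lower and 14.1% higher in KO, and 3.94% were called lower by at least 4-fold. Of all calls, 50.7% were higher in KO, or 40.1% when libraries were scaled by total counts, a scaling under which the same numbers of members were called in each direction. The median log2 fold change was -1.15 over the 12 members and 0.02 over all tested genes. The 12 expressed members are also those that passed the filter of the test. Adgrf4 passed it through WT alone, with 10 or more reads in 0 KO and 3 WT libraries, and so had to differ. For 9 of the 12 members all KO values lay on one side of all WT values, as they did for 49.7% of all tested genes.

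Without KO library 1, 6 members were called lower and 5 higher, against 33.7% and 32.6% of 12817 genes. Without WT library 4, 5 were called lower and 1 higher, Adgre5, against 4.72% and 3.99% of 12858 genes (edgeR). When KO libraries 2 and 3 were added up, and likewise WT libraries 4 and 6, Adgrf5 alone passed, as lower (edgeR adjusted p = 0.0395). In that setting 0.107% of 13041 genes were called lower and 0.0230% higher.

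**Figure D1:**
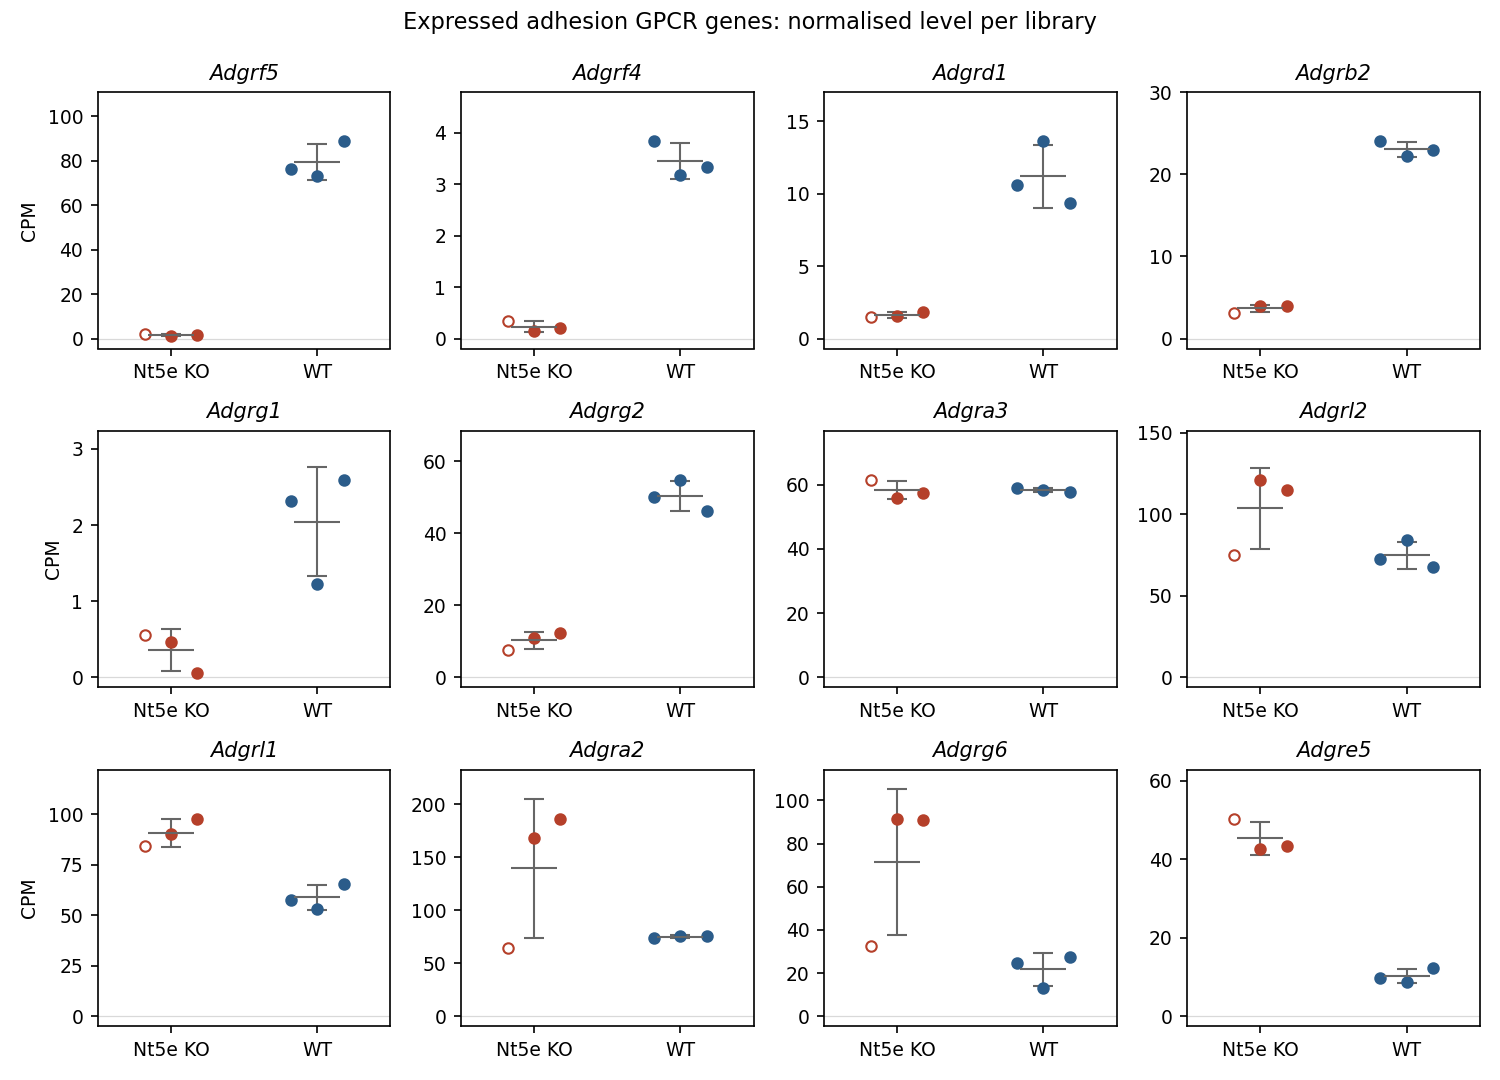
Normalised level (CPM, exon reads scaled to TMM library size; linear axes that differ between panels) of the 12 expressed adhesion receptor genes, ordered by log2 fold change. Each point is 1 library, the open point is KO library 1, and bars give the mean ± SD of 3 libraries; Adgrf5 lies at 1.41 to 1.99 CPM in KO and at 73.3 to 88.8 CPM in WT. For Adgra2, Adgrl2 and Adgrg6 the open point lies well below the other KO points.

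The largest difference among the members was in Adgrf5 (GPR116; ENSMUSG00000056492, chromosome 17, 43360451 to 43459557, plus strand, GRCm38), a receptor known in the mouse lung for holding surfactant in balance. It had 46, 30 and 29 exon reads in KO libraries 1, 2 and 3, against 1712, 1783 and 1916 in WT libraries 4, 5 and 6. The genotypes stood far apart and each was tight within itself. Its level was 1.65 ± 0.303 CPM in KO and 79.5 ± 8.19 CPM in WT (mean ± SD, n = 3 each), 47.8-fold lower, with a log2 fold change of -5.58 ± 0.17 (SE; edgeR adjusted p = 0.000114). Reads across exon junctions numbered 48 over KO and 2030 over WT libraries, so the spliced message showed the same difference. The gene is also known from endothelium, whose 10 listed markers summed to 3.81 to 7.55 CPM in KO and to 1.67 to 2.59 CPM in WT libraries. Of these, Tie1 and Cldn5 were at 0, and Kdr, the highest, averaged 4.81 ± 2.43 CPM in KO and 0.532 ± 0.244 CPM in WT.

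Adgrf4 (GPR115; ENSMUSG00000023918, chromosome 17, 42656891 to 42692284, minus strand), an orphan receptor of epithelia, lies in the same stretch of chromosome 17. It had 8, 3 and 4 exon reads in KO libraries 1, 2 and 3, against 86, 77 and 72 in WT libraries 4, 5 and 6. All KO libraries were below the minimum of 10 reads, and its log2 fold change was -3.84 ± 0.38 (SE; edgeR adjusted p = 0.00251). Adgrf2 and Adgrf1 lie between Adgrf4 and Adgrf5 on the chromosome and stayed below the minimum in every library. Adgrf2 had 11 reads over KO and 16 over WT libraries. Adgrf1 had 0 and 12, at least 3.94-fold lower in KO when that group is set at 3 reads. Adgrf3, on chromosome 5, had 0 reads in all 6 libraries.

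The RefSeq promoter windows of Adgrf5 and Adgrf4, the members with the largest falls, are shown to set their base composition beside those of Adgrb2, which also fell, and Adgrg6, which rose. Each window runs from 250 bases before to 50 bases after a gene start (GRCm38.p6), 5′ to 3′ on the gene's strand, with CG dinucleotides in capitals. Of the 27 genes, 20 had a window in that table, 9 of the 12 expressed ones among them.
Adgrf5, chr17:43360181-43360480, plus strand: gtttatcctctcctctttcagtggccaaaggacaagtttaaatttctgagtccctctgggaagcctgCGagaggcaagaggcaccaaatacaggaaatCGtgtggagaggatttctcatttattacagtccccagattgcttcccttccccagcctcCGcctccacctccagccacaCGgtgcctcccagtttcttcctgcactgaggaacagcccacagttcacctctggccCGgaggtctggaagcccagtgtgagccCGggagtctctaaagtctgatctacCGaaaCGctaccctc
Adgrf4, chr17:42692235-42692534, minus strand: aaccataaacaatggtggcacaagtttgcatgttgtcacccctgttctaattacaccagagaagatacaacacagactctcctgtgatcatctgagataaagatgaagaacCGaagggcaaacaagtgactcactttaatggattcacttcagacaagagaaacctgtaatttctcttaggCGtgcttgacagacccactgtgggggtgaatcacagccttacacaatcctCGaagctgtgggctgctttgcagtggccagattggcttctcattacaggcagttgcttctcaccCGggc
Adgrb2, chr4:129984620-129984919, plus strand: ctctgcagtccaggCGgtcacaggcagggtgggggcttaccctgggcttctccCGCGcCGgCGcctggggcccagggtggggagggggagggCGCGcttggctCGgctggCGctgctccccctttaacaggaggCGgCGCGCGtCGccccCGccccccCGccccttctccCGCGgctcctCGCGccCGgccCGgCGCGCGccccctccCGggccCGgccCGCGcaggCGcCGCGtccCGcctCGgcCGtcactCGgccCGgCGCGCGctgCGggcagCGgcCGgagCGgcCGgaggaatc
Adgrg6, chr10:14544987-14545286, minus strand: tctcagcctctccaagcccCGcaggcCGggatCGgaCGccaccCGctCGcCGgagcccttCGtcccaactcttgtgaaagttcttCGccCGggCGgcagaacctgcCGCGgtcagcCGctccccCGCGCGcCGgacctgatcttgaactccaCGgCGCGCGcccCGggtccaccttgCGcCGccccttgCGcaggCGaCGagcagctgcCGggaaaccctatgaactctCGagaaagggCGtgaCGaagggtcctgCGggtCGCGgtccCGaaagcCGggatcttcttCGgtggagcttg
The 300 bases held 8 CG dinucleotides at this start of Adgrf5, 4 at Adgrf4, 45 at Adgrb2 and 38 at Adgrg6, against a median of 7 over 32851 mouse windows. A count of at least 45 was reached by 1.93% of all windows and one of at least 38 by 4.95%. Among the receptors shown that fell, the count thus lay near the median at Adgrf5, below it at Adgrf4 and far above it at Adgrb2. The window of Adgrg2, which also fell and is not shown, held 30. The pattern TGANTCA, where N is any base, is looser than the AP-1 site TGACTCA that it includes. On either strand, it occurred at 2 places in the Adgrf4 window and in none of the other 3 shown. These places read TGACTCA and TGAATCA, and 7.81% of all windows hold the pattern. The core of the cAMP response element, TGACG, occurred once in the windows of Adgrb2 and Adgrg6 and not in those of Adgrf5 and Adgrf4, and 20.8% of all windows hold it.

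Adgrd1, Adgrb2 and Adgrg2 also fell, each with KO values far below all WT values. Adgrd1 (GPR133; chromosome 5, 129096750 to 129204599, plus strand), which couples to Gs and raises cAMP, had 35, 33 and 35 exon reads in KO libraries 1, 2 and 3, against 237, 330 and 202 in WT libraries 4, 5 and 6. Its log2 fold change was -2.76 ± 0.22 (SE; edgeR adjusted p = 0.00129). Adgrb2 (BAI2; chromosome 4, 129984870 to 130022633, plus strand), best known from brain, had 73, 83 and 74 reads in KO and 538, 539 and 495 in WT. That is 3.67 ± 0.442 CPM in KO and 23.0 ± 0.918 CPM in WT (SD, n = 3 each), with a log2 difference of -2.65 ± 0.13 (SE; edgeR adjusted p = 0.000429). Adgrg2 (GPR64; X chromosome, 160390690 to 160498070, plus strand), a receptor of the ducts of the male tract that take up fluid, had 176, 231 and 231 reads in KO and 1123, 1332 and 1000 in WT. It changed by -2.30 ± 0.19 on the log2 scale (SE; edgeR adjusted p = 0.00153).

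Adgrg1 (GPR56; chromosome 8, 94974751 to 95014217, plus strand), a receptor for collagen III and transglutaminase 2 that couples to G12/13, was scarce in all libraries. It had 13, 10 and 1 exon reads in KO libraries 1, 2 and 3, against 52, 30 and 56 in WT libraries 4, 5 and 6. The genotypes did not overlap, but the gene missed the threshold (log2 fold change -2.46 ± 0.72, SE; edgeR adjusted p = 0.0511). It passed as lower in DESeq2 (adjusted p = 0.00864), which called 36.8% of genes in either direction, in limma-voom (adjusted p = 0.0494), which called 15.1% lower, and on unique reads (edgeR adjusted p = 0.0489), where 13.8% were called lower. Without KO library 1 it passed in edgeR as well (adjusted p = 0.0103).

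Of the members that rose, Adgre5 (CD97; ENSMUSG00000002885, chromosome 8, 83723251 to 83741326, minus strand) had the largest fold change. CD97 is known from leukocytes, and the human protein binds CD55 and THY1. It had 1163, 905 and 813 exon reads in KO libraries 1, 2 and 3, against 219, 213 and 266 in WT libraries 4, 5 and 6. Here KO library 1 stood with the other KO libraries, above all WT values. Its level was 45.4 ± 4.27 CPM in KO and 10.3 ± 1.84 CPM in WT (SD, n = 3 each), 4.42-fold higher, which is 2.14 ± 0.16 on the log2 scale (SE; edgeR adjusted p = 0.00103). Over all tested genes, 1.78% were called higher by at least 4-fold. Exons of Adgre5 share 895 bases with Ddx39 on the opposite strand, and the counting is not stated to use strand. Ddx39 stood at 23.8 and 22.1 CPM in KO and WT (log2 fold change 0.11; edgeR adjusted p = 0.460), and junction reads of Adgre5 numbered 2048 over KO and 491 over WT libraries. The 10 listed leukocyte markers summed to 6.41 to 16.8 CPM in KO and to 4.59 to 7.18 CPM in WT libraries. Of these, Ptprc, Itgam, Fcgr1 and Tyrobp were at 0 in all libraries, and Lyz2, the highest, averaged 10.7 ± 4.82 CPM in KO and 1.80 ± 0.777 CPM in WT. Cd68 on the same list fell, with 0.589 ± 0.208 CPM in KO and 3.00 ± 0.447 CPM in WT (edgeR adjusted p = 0.00704).

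Adgrg6 (GPR126; chromosome 10, 14402583 to 14545659, minus strand), which drives Schwann cell myelination, binds collagen IV and laminin-211 and raises cAMP, had 752, 1940 and 1710 exon reads in KO libraries 1, 2 and 3. The WT libraries 4, 5 and 6 had 559, 322 and 590. The genotypes did not overlap in CPM, but KO library 1 lay just above WT while libraries 2 and 3 stood well above it. The log2 fold change was 1.71 ± 0.47 (SE; edgeR adjusted p = 0.0436). Without KO library 1 it was 2.06 (edgeR adjusted p = 0.000568), and without any other single library the call was lost (edgeR adjusted p from 0.103 to 0.125). The 6 listed Schwann cell markers summed to 14.7 to 21.9 CPM in KO and to 132 to 145 CPM in WT libraries. Of these, Sox10 and Foxd3 were at 0, and Mbp, the highest, averaged 13.9 ± 4.61 CPM in KO and 133 ± 6.94 CPM in WT.

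The latrophilins, receptors of the L subfamily that bind teneurins and FLRT proteins on neighbouring cells, were represented by Adgrl1 and Adgrl2. Adgrl1 (chromosome 8, 83900105 to 83941954, plus strand) had 1945, 1921 and 1836 exon reads in KO libraries 1, 2 and 3, against 1295, 1297 and 1413 in WT libraries 4, 5 and 6. It rose by 0.63 ± 0.10 on the log2 scale (SE; edgeR adjusted p = 0.0104), and the call was lost without WT library 4 (0.0605). Adgrl2 (chromosome 3, 148815583 to 148990555, minus strand) had 1733, 2558 and 2169 reads in KO and 1625, 2051 and 1461 in WT. Its genotypes overlapped (log2 fold change 0.47 ± 0.20, SE; edgeR adjusted p = 0.130), though it passed as a rise without KO library 1 (0.65, edgeR adjusted p = 0.00114) and with libraries summed whose titles share the part before the letter p (0.48, edgeR adjusted p = 0.0433), where 14.2% of genes were called higher.

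Adgrl3 was a feature of 1 library. It had 88 exon reads in KO library 1 and 0 in KO libraries 2 and 3, against 1, 2 and 2 reads in WT libraries 4, 5 and 6, and thus did not reach the minimum in 3 libraries. Of its 88 reads, 32 spanned exon junctions. Adgrl4 (ELTD1), typical of endothelium, had 0 reads over KO and 1 over WT libraries.

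Both expressed receptors of the A subfamily were abundant in both genotypes. Adgra3 (GPR125; chromosome 5, 49959956 to 50059006, minus strand), an orphan receptor, had 1418, 1189 and 1081 exon reads in KO libraries 1, 2 and 3, against 1326, 1420 and 1247 in WT libraries 4, 5 and 6. It averaged 58.3 ± 2.76 CPM in KO and 58.4 ± 0.678 CPM in WT, with a log2 fold change of -0.00 ± 0.06 (SE; edgeR adjusted p = 0.978). Adgra2 (GPR124; chromosome 8, 27085583 to 27123436, plus strand), which with Reck recognises Wnt7 ligands during growth of brain vessels, had 1493, 3570 and 3489 reads in KO and 1651, 1834 and 1640 in WT. KO library 1 was at 64.6 CPM, below the WT range of 73.6 to 76.0 CPM, and libraries 2 and 3 were at 168 and 186 CPM. Adgra2 did not pass with all libraries (log2 fold change 0.90 ± 0.38, SE; edgeR adjusted p = 0.130), and without KO library 1 it passed as a rise (1.23, edgeR adjusted p = 8.33e-06).

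**Figure D2:**
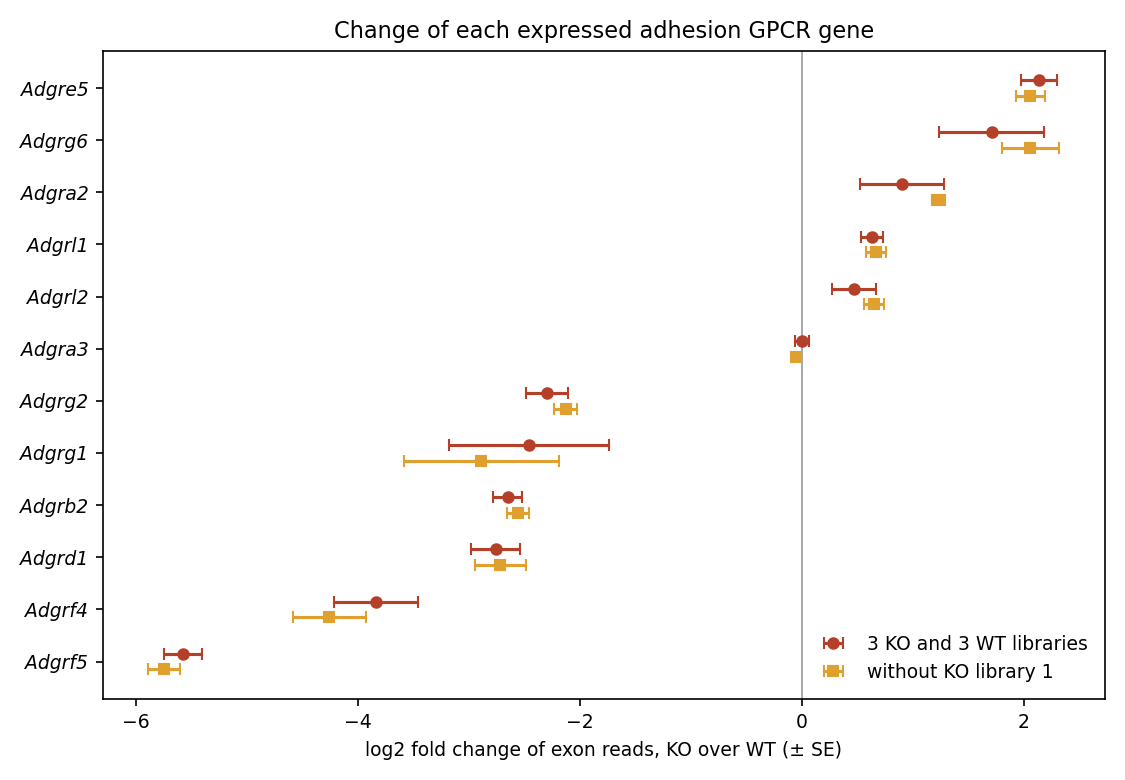
Log2 fold change, KO over WT, of exon reads for the 12 expressed members, with its standard error, for all 6 libraries (circles) and without KO library 1 (squares). Adgrf5 is lowest in both fits, at -5.58 and -5.75, and Adgra2 is at 1.23 without that library and at 0.90 with it.

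Set per length, the members took a different order in each genotype. RPKM, read densities scaled to exon length and library size and deposited by the authors, allow levels of different genes to be set side by side. In KO, Adgra2 averaged 21.5 ± 9.48 RPKM, Adgrl2 14.2 ± 2.87, Adgre5 12.4 ± 1.77, Adgra3 11.8 ± 1.12, Adgrl1 9.59 ± 0.405 and Adgrg6 8.83 ± 3.93 (SD, n = 3). The first 4 of these overlapped with their neighbours in that order, as did Adgrl1 with Adgrg6. Adgrg2 followed at 1.85 ± 0.361 RPKM, below all of them, then Adgrb2 at 0.595, Adgrd1 at 0.287, Adgrf5 at 0.166, Adgrf4 at 0.0698 and Adgrg1 at 0.0642, the last pair overlapping.

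In WT, Adgra3 and Adgra2 each averaged 12.4 RPKM and Adgrl2 10.9 ± 1.18. Adgrg2 stood at 9.67 ± 0.748 and Adgrf5 at 8.42 ± 0.91 RPKM. In this order Adgra3 to Adgrf5 each overlapped with the gene beside them among these 5, and Adgrf5 lay above the range of Adgrl1. Lower levels were those of Adgrl1 (6.58 RPKM), Adgrb2 (3.96), Adgre5 (2.95), Adgrg6 (2.89), Adgrd1 (2.06), Adgrf4 (1.07) and Adgrg1 (0.379), where Adgre5, Adgrg6 and Adgrd1 overlapped with their neighbours and the others did not. Adgrf5 was thus of rank 10 in KO and of rank 5 in WT, while Adgre5 was of rank 3 in KO and of rank 8 in WT.

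The summed RPKM of the 27 genes was 65.9, 87.6 and 91.0 in KO libraries 1, 2 and 3, against 73.7, 72.9 and 75.3 in WT libraries 4, 5 and 6, so the sums overlapped although single members moved far. The 5 members called lower held 3.94%, 3.41% and 3.65% of that sum in KO libraries 1, 2 and 3, against 34.0%, 34.8% and 33.4% in WT libraries 4, 5 and 6. The 3 called higher held 42.6%, 36.2% and 35.8% in KO and 17.1%, 13.9% and 19.3% in WT. These shares restate the calls for the whole family and are a description.

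**Figure D3:**
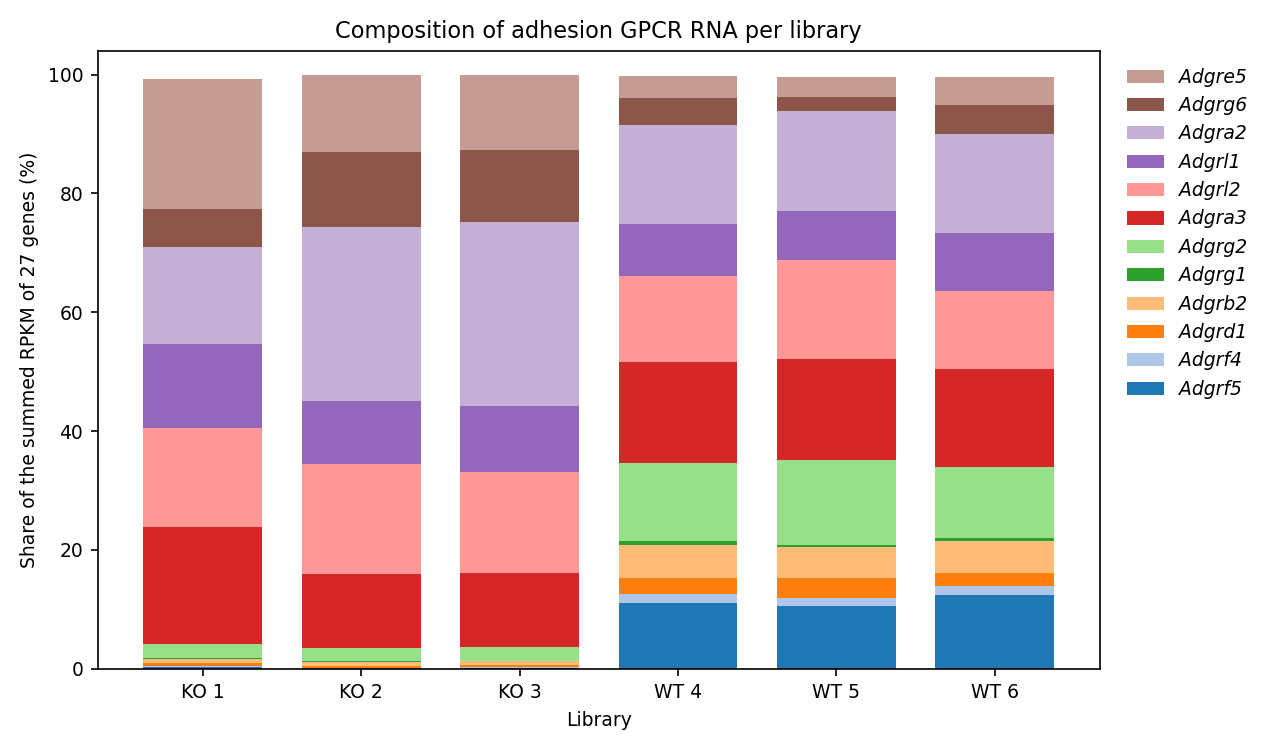
Share (%) of the summed RPKM of all 27 adhesion receptor genes taken by each of the 12 expressed members, 1 bar per library, with colours as named in the legend. Adgrf5 takes 0.157% to 0.319% in KO bars and 10.6% to 12.5% in WT bars, and Adgra2 takes 16.2% in KO library 1 but 29.2% and 31.0% in libraries 2 and 3.

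Reads within introns, which RNA not yet spliced still carries, gave another readout of the same genes. Of the 12 expressed members, 10 had enough intron reads for a test, in which 3 were called lower and 2 higher, against 7.03% and 4.98% of 10653 genes (edgeR, adjusted over those genes). Adgrf5 had 0, 1 and 1 intron reads in KO libraries 1, 2 and 3, against 45, 42 and 54 in WT libraries 4, 5 and 6 (log2 fold change -5.90 ± 0.49, SE; edgeR adjusted p = 0.000258). Adgrb2 (-2.30, 0.000251) and Adgrg2 (-2.88, 0.00119) fell in intron reads too, and Adgre5 (2.38, 0.00213) and Adgrg6 (1.24, 0.0162) rose, with log2 fold change and edgeR adjusted p in parentheses.

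Adgrd1 stood apart from these. Its intron reads numbered 22, 49 and 44 in KO libraries 1, 2 and 3, against 42, 36 and 31 in WT libraries 4, 5 and 6, so the genotypes overlapped (log2 fold change 0.06 ± 0.28, SE; edgeR adjusted p = 0.920). Its junction reads, 43 over KO and 345 over WT libraries, differed as its exon reads did. For Adgrl1 the intron reads gave 0.20 ± 0.15 (SE; edgeR adjusted p = 0.444) beside 0.63 in exon reads. Whether exon and intron changes of a gene differ from each other was not tested.

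**Figure D4:**
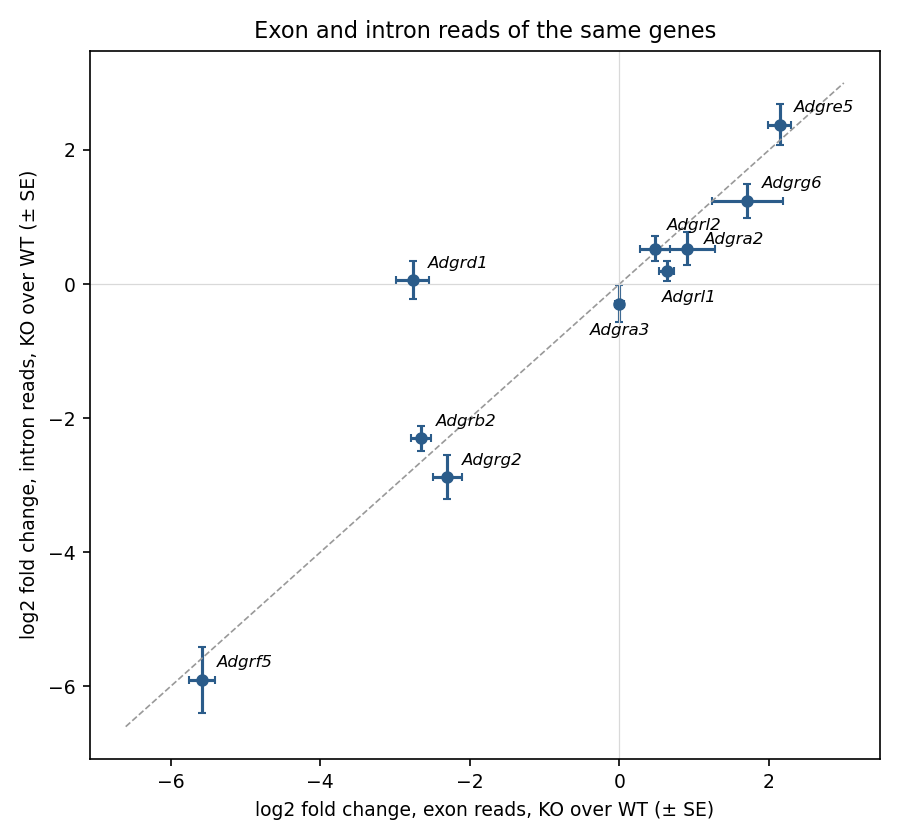
Log2 fold change, KO over WT, of exon reads (horizontal) and of intron reads (vertical) for the 10 members tested in both, with standard errors; the dashed line marks equal changes. Adgrf5, Adgrb2, Adgrg2, Adgrg6 and Adgre5 changed in the same direction in both readouts, and Adgrd1 lies at -2.76 in exon reads and at 0.06 in intron reads.

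The 15 members below the minimum had 105 exon reads over KO and 71 over WT libraries, of which Adgrl3 gave 88 and 5. Adgre1 (F4/80, the classical marker of mouse macrophages), Adgrf3, Adgrg3, Adgrg4 and Adgrv1 (a receptor of inner ear hair cells) had 0 reads in all libraries, which allows up to 3 reads, or 0.0228 CPM over all exon reads, for counting error only. Adgrb1, Adgra1, Adgre4, Adgrg5, Adgrg7 and Adgrl4 had 1 to 4 reads in all. Adgrb3 (BAI3), which binds C1q-like proteins, had 0 reads over KO and 5, 21 and 5 in WT libraries 4, 5 and 6, at least 10.2-fold lower when the KO group is set at 3 reads, or at least 5.12-fold without WT library 5. It was called lower once the filter on low counts was dropped (edgeR adjusted p = 0.0476), where 10.1% of 16299 genes were called lower.

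Celsr1, a receptor of planar cell polarity and of the same class, had 22, 2 and 2 exon reads in KO libraries 1, 2 and 3, against 895, 876 and 949 in WT libraries 4, 5 and 6. It fell by 6.61 on the log2 scale (SE 0.71, edgeR adjusted p = 0.0031), and by 8.57 without KO library 1. In the fit without that library, Celsr1 passed the filter through WT alone and so had to differ. Celsr2 did not pass (-0.92 ± 0.43, SE; edgeR adjusted p = 0.160), though it passed as a fall without KO library 1 (-1.54, edgeR adjusted p = 0.0011), and Celsr3 had 15 and 12 reads over KO and WT libraries.

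Among 37 genes listed as ligands or partners of adhesion receptors, 27 were tested, of which 2 rose, 9 fell and 16 did not pass, with a median log2 fold change of -0.48. Over all tested genes, 27.8% were called. Without KO library 1, 7 of the 27 rose and 15 fell, against 32.6% and 33.7% of all genes (edgeR). Without WT library 4, 4 were called in all, against 3.99% of genes called higher and 4.72% lower (edgeR). Cd55, which shields cells from complement and is bound by CD97, averaged 134 ± 43.9 CPM in KO and 832 ± 29.5 CPM in WT (log2 fold change -2.63 ± 0.27, SE; edgeR adjusted p = 0.00261). Thy1, a small surface glycoprotein, averaged 6.87 ± 0.75 and 46.4 ± 5.30 CPM in KO and WT (-2.76 ± 0.14, SE; edgeR adjusted p = 0.000414). Both listed partners of CD97 were thus lower where Adgre5 was higher.

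Of the matrix ligands, Lama2 rose and Col4a3, a chain of collagen IV, fell (log2 fold change -1.92 ± 0.26, SE; edgeR adjusted p = 0.00604). Lama2, the alpha chain of laminin-211, stood at 36.5, 265 and 274 CPM in KO libraries 1, 2 and 3, against 0.535, 0.576 and 0.741 CPM in WT libraries 4, 5 and 6 (log2 fold change 8.27 ± 1.0, SE; edgeR adjusted p = 0.00424). Col3a1, whose product is a ligand of the receptor made from Adgrg1, stood at 161, 6240 and 7290 CPM in KO and at 939, 754 and 1000 CPM in WT, and did not pass (edgeR adjusted p = 0.178), though it did so as a rise without KO library 1 (2.91, edgeR adjusted p = 7.83e-06). Col4a1 and Col4a2, the main chains of collagen IV, had log2 fold changes of -0.48 and -0.54 and did not pass (edgeR adjusted p = 0.381 and 0.110). They were -0.14 and -0.34 without KO library 1 and passed as falls (edgeR adjusted p = 0.0296 and 0.00127). The other listed chains, Col4a4, Col4a5 and Col4a6, did not pass with all libraries (edgeR adjusted p = 0.108, 0.823 and 0.0737). Without KO library 1, Col4a4 passed as a fall (-2.09, edgeR adjusted p = 6.92e-06). In the same fit Col4a5 and Col4a6 passed as rises (0.28 and 0.79, edgeR adjusted p = 0.00219 and 2.56e-05). Reck, the partner of the receptor made from Adgra2, rose by 1.39 ± 0.35 on the log2 scale (SE; edgeR adjusted p = 0.0343), with 160, 73.4 and 69.7 CPM in KO libraries 1, 2 and 3, against 41.9, 33.0 and 41.2 CPM in WT libraries 4, 5 and 6. Wnt7a and Wnt7b had 2 and 15 reads over KO and 0 and 5 over WT libraries. Flrt2, a latrophilin ligand, stood at 78.3, 708 and 768 CPM in KO and at 99.3, 83.6 and 97.2 CPM in WT, so KO library 1 lay with WT (edgeR adjusted p = 0.0648), and it passed as a rise without that library (2.98, edgeR adjusted p = 1.63e-06). Of the other FLRT genes, Flrt3 fell, with 0.610 ± 0.263 CPM in KO and 2.83 ± 0.613 CPM in WT (-2.21 ± 0.42, SE; edgeR adjusted p = 0.0147). Flrt1 did not pass with all libraries (-1.58; edgeR adjusted p = 0.358) and passed as a fall without KO library 1 (-4.64; edgeR adjusted p = 4.16e-05).

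Downstream of the receptors, 2 of the 10 listed genes of the G12/13 branch, which activates the small GTPase RhoA, were called, 1 higher and 1 lower, against 27.8% of all tested genes. The one that fell was Rhob (log2 fold change -1.49 ± 0.10, SE; edgeR adjusted p = 0.000816). Rhoa averaged 390 ± 6.88 CPM in KO and 405 ± 6.2 CPM in WT and did not pass, nor did Rock2, Arhgef12 and Gna12 (edgeR adjusted p = 0.0722, 0.0983 and 0.0523). Without KO library 1, 6 of the 10 rose and 1 fell, against 32.6% and 33.7% of all genes (edgeR).

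Of the other G alpha subunits, 10 of 11 were tested, 4 rose and 2 fell, against 14.1% and 13.7% of all tested genes. Without WT library 4, 1 of them was called, against 3.99% of genes called higher and 4.72% lower (edgeR). Gnas, the Gs subunit that raises cAMP, rose to 998 ± 55.0 CPM in KO, against 748 ± 22.8 CPM in WT (0.41 ± 0.08, SE; edgeR adjusted p = 0.0175). Gnaq (0.61, 0.0254), Gnai3 (0.30, 0.0171) and Gnao1 (2.39, 0.0257) also rose, with log2 fold change and edgeR adjusted p in parentheses. Gnaz (-2.19, 0.00963) and Gnai1 (-4.87, 0.0226) fell, while Gnai2 did not pass (0.14, 0.483). Gnai1 had 86, 2 and 5 reads in KO libraries 1, 2 and 3, against 893, 951 and 961 in WT libraries 4, 5 and 6. Among receptor kinases and arrestins, 6 of 7 genes were tested and 2 rose, against the same 14.1%. Arrb1 rose (log2 fold change 1.35 ± 0.36, SE; edgeR adjusted p = 0.0403), as did Grk6 (0.28 ± 0.07, SE; edgeR adjusted p = 0.0323). Grk2, Grk5 and Arrb2 did not pass (edgeR adjusted p = 0.152, 0.653 and 0.150). Without KO library 1, 5 of 7 tested kinases and arrestins rose and 2 fell, against 32.6% and 33.7% of all genes (edgeR). Grk3, among those that rose, had 0, 19 and 19 reads in KO libraries 1, 2 and 3, against 1, 0 and 0 in WT libraries 4, 5 and 6. It passed the filter of that fit through KO alone and so had to differ. Without any other single library both calls made with all libraries were lost (edgeR).

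Markers of other cell types differed with genotype as well. Mesothelial Msln averaged 15.5 ± 24.7 CPM in KO and 786 ± 18.7 CPM in WT, and Krt8 had 0 reads over KO and 43 over WT libraries. All 7 tested mesothelial markers were called lower, as were Adgrf5, Adgrf4, Adgrd1, Adgrb2 and Adgrg2, but Krt8 passed the filter through WT alone and so had to differ, which leaves 6. Of 5 tested pericyte markers, 3 rose, among them Pdgfrb, at 752 ± 383 CPM in KO and 185 ± 6.51 CPM in WT. Kcnj8 fell, with 1 read over KO and 190 over WT libraries, and likewise passed the filter through WT alone. Rgs5 was lower in all KO libraries but did not pass (log2 fold change -0.92; edgeR adjusted p = 0.167). Without KO library 1 Rgs5 passed as a fall (-0.54; edgeR adjusted p = 0.00107). Abcc9, not tested, had 0 reads over KO and 41 over WT libraries. The pericyte list summed to 386 to 1050 CPM in KO and to 226 to 243 CPM in WT libraries. Of 6 tested fibroblast markers 1 rose, the list summed to 5360 to 10300 CPM in KO and to 4980 to 5210 CPM in WT, and Dcn, the highest over all libraries, averaged 2640 ± 270 CPM in KO and 2490 ± 169 CPM in WT. Smooth muscle markers summed to 177 to 698 CPM in KO and to 136 to 206 CPM in WT, and of 5 tested Smtn rose and Cnn1 fell. Of the tested Schwann cell markers 1 of 3 fell, of the endothelial 1 of 2 rose, and of the leukocyte 1 of 3 rose and 1 fell. These marker counts stand beside 14.1% of all tested genes called higher and 13.7% lower. Without KO library 1, 5 of 6 fibroblast markers rose, all but Dcn, and of 6 smooth muscle markers 5 rose and 1 fell. Myh11, among those that rose, passed that filter through KO alone and so had to differ. Cnn1, the one that fell, had 5 and 5 reads in KO libraries 2 and 3, passed it through WT alone and likewise had to differ. Of 5 pericyte markers 3 rose and 2 fell, and all 7 tested mesothelial markers fell. Of 3 tested each, 1 Schwann cell marker fell, 1 endothelial marker rose, and 1 leukocyte marker rose and 1 fell. In that fit 32.6% of all genes were called higher and 33.7% lower (edgeR). The part of these shifts in the results on adhesion receptors was not tested.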

How the data were processed

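Exon reads, junction reads, intron reads and RPKM of poly(A)+ RNA (a stranded kit, per the labels' protocols) were used as deposited, 1 row per gene and library. Read counts are whole numbers made by the authors, and the deposited expression value equals total exon reads in all 154098 entries. RPKM were deposited by the authors beside the counts, and served only to set levels of different genes side by side. Per the submitters' processing notes, the authors used build GRCm38. Not given in the sources used here were aligner, counter and strand use. Coordinates of 26 of the 27 genes matched GENCODE M21. The deposited fractions (unique and intron shares) and gene lengths per the file headers were read as descriptions only.

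Exon reads were tested with edgeR 4.0.16 (R 4.3.3) using its quasi-likelihood test (glmQLFit, glmQLFTest) in a model of genotype alone. Low genes were removed by filterByExpr (minimum count 10), libraries were scaled by TMM, and p-values were adjusted by Benjamini-Hochberg across all 12660 genes, with 0.05 as threshold. Dividing a log2 fold change by the root of its F gave the SE. CPM use TMM library sizes. Alternatives were other scalings, filters, DESeq2 1.42.0, limma-voom (limma 3.58.1), unique reads, libraries summed by the first part of their titles (whose meaning the labels do not give) or as nearly identical pairs, title numbers as covariates, each library left out and, added after seeing the data, intron reads. Methods were tested on simulated data. Members and lists were chosen with earlier results of these data known. Named were all members, Celsr genes and, per pathway list, the 3 genes of highest mean and 3 of smallest p, and per marker list the highest and those at 0. Reck, Wnt7a, Wnt7b, Flrt1, Flrt2, Flrt3, Col4a3, Des, Myocd, Smtn, Tagln, Cnn1, Cd68, Krt8 and Kcnj8, outside that rule, were chosen after their values were seen. So were Myh11, Rgs5, Abcc9, Grk3, Col4a4, Col4a5, Col4a6, Gnai1 and Gnao1. A gene that the rule names and 1 neighbouring gene are not reported here. Intervals and limits for reads cover counting error only. Plots used matplotlib 3.10.9.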

Additional observations from a re-analysis of the deposited data

How the results depend on the processing

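Of the 12 tested members, Adgrf5 kept its fall and its call in all 18 alternatives. Adgrb2, Adgrg2, Adgrf4 and Adgre5 lost their calls only with the nearly identical pairs summed, where their log2 fold changes were -2.68, -2.42, -3.71 and 2.24 (edgeR adjusted p from 0.0617 to 0.0975). Adgrd1 lost its call there (-2.86; edgeR adjusted p = 0.0773) and on intron reads, where its log2 fold change was 0.06. Adgrf4 had too few intron reads for a value. With the pairs summed, 0 members were called higher and 1 lower, 17 of all genes were called, and 0 genes of each of the 4 pathway lists; this setting leaves 2 samples per genotype. On intron reads 3 members were called lower and 1280 genes in all; fewer genes were tested there. Leaving out 1 library at a time, the members called higher numbered 1 to 5 and those called lower 5 to 6, of 1120 to 8486 genes called in all; the higher members and all genes were fewest without WT library 4 and most without KO library 1. In the same settings 4 to 22 ligands or partners were called, 1 to 7 genes of the G12/13 branch, 1 to 6 other G alpha subunits, and 0 to 7 receptor kinases and arrestins. The G12/13 branch had 5 calls in DESeq2 and 4 with libraries summed by the first part of their titles. Of all genes, DESeq2 called 36.8%, and 3797 were called with libraries so summed. With total counts 3375 genes were called, in limma-voom 3568 and with the title p number as covariate 3122. Kinases and arrestins had 1 with total counts, 1 in limma-voom and 0 with the title p number as covariate (edgeR; with genotype alone, DESeq2 called 2 and 2 passed at an unadjusted p under 0.05). Adgrg6 also lost its call in limma-voom (1.64, adjusted p = 0.0582) and with the title p number as covariate (1.26, edgeR adjusted p = 0.0554). Adgra3, at -0.00, changed sign with the pairs summed (0.02), with the title p number (0.02) and without single libraries (-0.05 to 0.03). The cause of these shifts was not tested unless named. No paired analysis was possible because the labels give no replicate number that the genotypes share. Title numbers of unstated meaning are shared and were fitted as covariates; with the last one 3 members were called higher, 5 lower and 4510 genes in all, and Adgrg6 stood at 1.64 ± 0.13 (SE; edgeR adjusted p = 0.00185). Genes under about 10 reads per library are limited by depth.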

Other observations

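Genes beside the adhesion receptors changed in some places and not in others. On chromosome 17, Adgrf4 and Adgrf2 lie 3.85 kb apart, and Adgrf1 and Adgrf5 35.7 kb apart, with 528 kb between the pairs. Within 200 kb of Adgrf4, Cd2ap, an adaptor of the actin cytoskeleton, fell to 134 CPM in KO, against 274 CPM in WT (log2 fold change -1.04; edgeR adjusted p = 0.000744). In the same window Ptchd4 rose (0.95; edgeR adjusted p = 0.0358). The one tested neighbour of Adgrf5, Slc25a27, did not pass (0.49; edgeR adjusted p = 0.135). On chromosome 8, Adgre5 and Adgrl1 lie 159 kb apart and both rose. Of the 8 tested genes within 200 kb of Adgre5, 3 rose and 5 did not pass, Adgrl1 among those that rose. Dnajb1, a heat shock co-chaperone, rose to 73.8 CPM in KO, against 48.1 CPM in WT (0.62; edgeR adjusted p = 0.00903). Of the 11 tested genes within 200 kb of Adgrl1, 3 rose, among them Prkaca, the catalytic subunit of protein kinase A (0.43; edgeR adjusted p = 0.0142), and Rfx1 (0.41; edgeR adjusted p = 0.0248). The one tested neighbour of Adgrg2, Phka2, fell with it, with 19.7 CPM in KO and 31.3 CPM in WT (-0.66; edgeR adjusted p = 0.0188). The 4 tested neighbours of Adgrb2 and the 2 of Adgrd1 did not pass (edgeR adjusted p from 0.0803 to 0.879). Over all tested genes, 14.1% were called higher and 13.7% lower. These neighbours were looked up after the members' values were seen.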
